A study of Mus musculus with 10 samples.

Results

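The genes described here build the intercalated disc, the end-to-end contact between heart muscle cells. There were 10 of them, chosen by name: the adherens junction genes Cdh2, Ctnnb1, Ctnnd1, Ctnna1 and Ctnna3, the linkers Tjp1 and Vcl, the connexins Gja1 and Gja5, and the muscle filament gene Des. Every probe set that the array annotation assigns to 1 of these symbols alone was taken, which gave 21 probe sets for 9 of the 10 genes, out of 20393 probe sets for 12393 genes in all. No probe set listed here carried the symbol Ctnna3, so that gene was not analysed. After a filter on dim signals, 19 of the 21 probe sets and 8 of the genes were tested. The single Gja5 probe set and 1 of 3 Ctnna1 probe sets were too dim for it.

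Right ventricular RNA of 10 mice, all of strain 129SV, was hybridised to 1 Affymetrix array per mouse. The groups were trained plakoglobin (+/-) mice (n = 4), trained wildtype mice (n = 4), 1 untrained plakoglobin (+/-) mouse and 1 untrained wildtype mouse. The plakoglobin (+/-) mice carry 1 disrupted copy of Jup, which encodes plakoglobin, and the labels give no further detail of the allele. Both trained groups were made up of 2 male and 2 female mice aged 6 months, which swam 6 times per week in water of 35 °C for a daily time lengthened from 5 to 90 min; both untrained mice were females of 10 months. Training therefore cannot be told apart from age, and the untrained mice have no replicates within a genotype. The design names pairs of littermates but not which mice were paired, and asks whether the genotypes respond differently to endurance training. Each mouse is 1 animal with 1 array, and the number of arrays limits the precision.

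At the disc, N-cadherin (Cdh2) reaches across the gap between neighbouring myocytes. Its tail binds beta-catenin (Ctnnb1) or plakoglobin, and p120-catenin (Ctnnd1) stabilises it at the membrane. Alpha-catenins (Ctnna1, Ctnna3) and vinculin (Vcl) couple this complex to actin, and ZO-1 (Tjp1) is a scaffold that also binds connexin 43. Connexin 43 (Gja1) forms the gap junction channels that carry the impulse between ventricular myocytes. Connexin 40 (Gja5) does so mainly in atria, in the fast conduction system and in arterial endothelium. Desmin (Des) is the intermediate filament that ties the contractile lattice to the desmosomes.

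All values are MAS5 signals on a linear scale that the authors scaled to a common level on every array, and differences are on the log2 scale after raising signals to a floor of 104. A gene is represented by its brightest probe set unless another is named. Differences are taken between mice within a probe set. Levels of different probe sets are set side by side only to pick the brightest and to describe the tissue. Summed marker signals add over probe sets, so the brightest genes weigh most in them. In probe set names, "_a_at" marks probes that read alternative transcripts of 1 gene, and "_x_at" marks sets in which some probes may also bind other sequences, so values of "_x_at" sets are less certain.

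The targeted gene Jup read 1992, 3520, 2230 and 2363 in trained plakoglobin (+/-) mice, against 2928, 3207, 3996 and 4322 in trained wildtype mice. It read 3157 in the untrained plakoglobin (+/-) mouse and 2387 in the untrained wildtype mouse, so the genotypes are used as labelled and not as shown by Jup. The markers of ventricular muscle were bright: Myl2, the ventricular light chain, read between 222537 and 406537. The atrial light chain Myl7 read between 40.0 and 729.1, at or below the floor on 3 of 10 arrays. Another atrial light chain, Myl4, read between 1448 and 3234, above the floor on every array. Of 13 atrial and conduction markers 10 were on the array and 5 were tested, so signals of this list were not all dim. Of the 10 myocyte markers all were tested and none was at the floor on any array.

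On 3 arrays a sign of RNA quality stood apart, and several probe sets of these genes moved with them. Signal at the 3′ end of GAPDH, divided by that at its 5′ end on the array's control probe sets, was 2.98 in trained plakoglobin (+/-) replicate 1, 2.50 in trained wildtype replicate 1 and 17.8 in trained wildtype replicate 2. This ratio lay between 0.849 and 1.02 on the other 7 arrays. The actin control was also raised in trained plakoglobin (+/-) replicate 1, at 2.65, and in trained wildtype replicate 1, at 3.05, but not in trained wildtype replicate 2, at 1.29. The first 2 of these arrays were both from males. Results below include these 3 arrays unless it is said that they were left out. Without them the trained mice were plakoglobin (+/-) replicates 2, 3 and 4 and wildtype replicates 3 and 4. The only males among these were plakoglobin (+/-) replicate 2 and wildtype replicate 3. Genotype, sex and training values without the 3 arrays thus rest on very few mice, and a smaller SE there does not make them more certain.

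The first comparison asked how these genes differed in the 8 trained mice from the 2 untrained ones. No probe set of these genes passed the test, but Gja1 and Ctnna1 had higher signals in trained mice by most of their probe sets. Both bright Ctnna1 probe sets lay above the untrained mice in 8 of 8 trained mice, by 1.48-fold and 1.60-fold in the fit. Of the 6 Gja1 probe sets, 4 did so, by 1.32-fold to 1.81-fold. Cdh2, Tjp1 and Vcl were higher by 1.20-fold to 1.23-fold and Ctnnb1, Ctnnd1 and Des lower, with groups that overlapped at each of these 6 genes.

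By limma with terms for genotype and sex, 0 of 19 probe sets passed, where 0.626% of all 13576 tested probe sets did (0.273% higher and 0.354% lower). The lowest adjusted p among them was 0.233, for Ctnna1. At an unadjusted p under 0.05 there were 6 of 19, against 8.68% of all probe sets. Signals of the 8 trained mice all exceeded those of the untrained pair at the same number, 6 of 19, against 4.63% of all probe sets, and were all below them at 0 of 19, against 4.61% (9.24% of all in either direction). These 6 belong to only 2 genes and probe sets of 1 gene read the same RNA, so they are not 6 separate observations. By representing probe set the median difference of the 8 genes was 0.18, with 5 higher and 3 lower, and over all 8365 genes tested it was 0.00, with 50.1% higher. Counted over probe sets, 12 of 19 were higher, against 49.8% of all. Both untrained mice were females. With sex in the fit, each training difference therefore compares the trained females with them, and the trained males enter through the sex term.

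Each of the 19 training differences kept its sign when the 3 arrays were left out. Gja1 probe set 1438650_x_at then passed, with a difference of 0.91 (SE 0.17; limma, adjusted p = 0.0244), so 1 of 19 probe sets was past the threshold. That fit rested on plakoglobin (+/-) replicates 2, 3 and 4, wildtype replicates 3 and 4 and the untrained pair. The trained females among these were plakoglobin (+/-) replicates 3 and 4 and wildtype replicate 4. The smaller SE therefore does not make this value more certain. Of all 13576 tested probe sets 225 passed in that fit, against 85 with the 3 arrays. The second-lowest adjusted p without these arrays was 0.103, for Ctnna1 probe set 1448149_at at 0.61. In the fit over all 10 mice this probe set of Gja1 had an adjusted p of 0.387, and with each mouse left out in turn its difference ranged from 0.78 to 0.93 without passing.

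**Figure D1:**
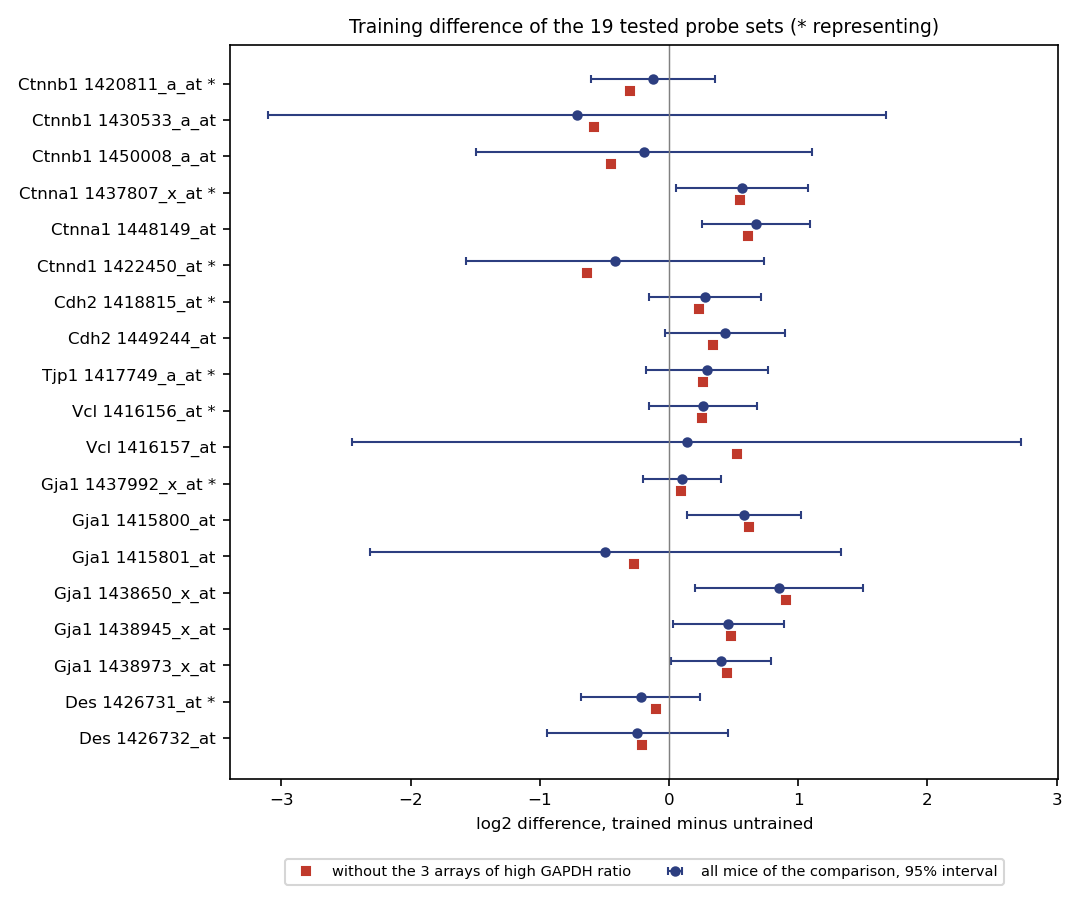
Log2 difference of trained (n = 8) minus untrained mice (n = 2) for each of the 19 tested probe sets; blue points and bars are the limma estimate with its 95% interval and red squares the estimate without the 3 arrays of high GAPDH ratio. Both Ctnna1 probe sets and 4 Gja1 probe sets (differences of 0.40 to 0.85) have intervals above 0 before adjustment for multiple tests, and the widest intervals belong to Ctnnb1, Vcl and Gja1 probe sets that are low on those arrays.

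Markers of cell types, myocytes among them, were also set against training. Of 9 tested leukocyte markers 8 were lower in trained mice, and their summed signal lay between 26962 and 45635 in trained mice, against 45923 in the untrained plakoglobin (+/-) and 46806 in the untrained wildtype mouse. Of 10 myocyte markers 9 were lower, with sums between 1870038 and 2354092 in trained mice, against 2655347 and 2297729 in the untrained plakoglobin (+/-) and wildtype mouse. Of 8 fibroblast markers 7 were lower, by a median of -0.41. Endothelial markers were lower at 7 of 10, and arterial and smooth muscle markers at 3 of 7. None of these markers passed singly, and their part in the values of the disc genes was not tested. In whole tissue, fewer cells of a type and less RNA per cell cannot be told apart.

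The second comparison asked whether these genes differed by genotype in trained mice. All 8 represented genes had a slightly lower signal in plakoglobin (+/-) mice, by 0.02 to 0.27 on the log2 scale, but none passed, and under quantile normalization Ctnna1 (0.05), Tjp1 (0.01) and Des (0.02) turned to slightly higher. The groups were separate at 1 probe set, the brightest of Gja1, where all 4 trained plakoglobin (+/-) mice lay below all 4 trained wildtype mice. The difference there was small, -0.15 (SE 0.11), or 0.902 times the wildtype signal, and it was -0.05 under quantile normalization.

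Myocyte markers were lower by genotype too: 9 of 10 were lower in trained plakoglobin (+/-) mice, with a median of -0.13, and their summed signal lay between 1870038 and 2230969 in trained plakoglobin (+/-) mice, against between 1967828 and 2354092 in trained wildtype mice. One of them, Mb, the oxygen store myoglobin, was lower without overlap, at -0.15, and is named after its values were seen. Of 16 genes of intermediate filaments and Z-disc linkers 12 were lower. Lists of other junction genes were evenly split. Other adherens junction genes were higher at 10 of 20, desmosome genes at 4 of 8, and other connexins and pannexins at 2 of 4. The rest of each list was lower. Fibroblast markers were lower at 6 of 8, endothelial markers at 3 of 10 and leukocyte markers at 4 of 9. None of these passed, and their part in the values of the disc genes was not tested.

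By limma with a term for sex, 0 of 19 probe sets passed, and 0% of all 13576 did; at an unadjusted p under 0.05 there were 0 of 19, against 2.01% of all. The adjusted p was 1 for each of the 19. Lower signals without overlap were found at 1 of 19 probe sets, against 0.796% of all tested probe sets, and higher signals without overlap at 0 of 19, against 0.803% (1.6% in either direction). The median difference of the 8 genes was -0.09, and over all genes it was 0.01 with 51.2% higher. Over all 19 probe sets 14 were lower and 5 higher, from -0.43 to 0.51, where 51.9% of all tested probe sets were higher.

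The intervals say what sizes of genotype difference each probe set leaves possible. For the representing probe sets of Gja1, Vcl, Cdh2, Tjp1, Des, Ctnnb1 and Ctnna1 the 95% interval reached no lower than -0.68, for Ctnnb1, and no higher than 0.42, for Ctnna1. For Ctnnd1 it ran from -1.09 to 0.91. Without the 3 arrays, Ctnnb1 moved to 0.04, Ctnna1 to 0.06 and Ctnnd1 to 0.46, so the lower signals of these representing probe sets in plakoglobin (+/-) mice were not seen without those arrays. The other tested Ctnna1 probe set, 1448149_at, had -0.26 with them and -0.34 without them. With single mice left out in turn, Cdh2, Ctnna1, Ctnnd1, Des and Tjp1 changed sign in 1 to 4 of 8 fits, while Ctnnb1, Gja1 and Vcl did not.

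**Figure D2:**
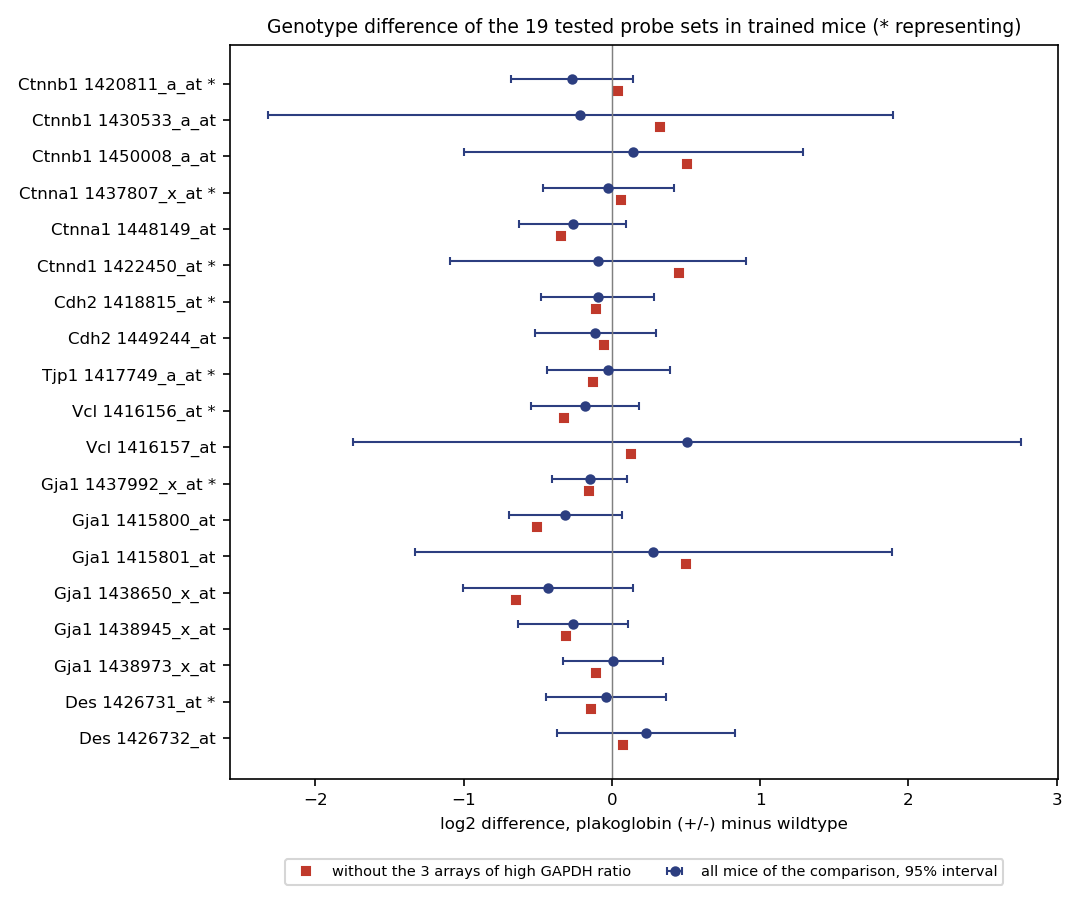
Log2 difference of plakoglobin (+/-) minus wildtype in the 8 trained mice for each tested probe set; blue points and bars are the limma estimate with its 95% interval and red squares the estimate without the 3 arrays of high GAPDH ratio. Every interval includes 0, and the estimates run from -0.43 (Gja1) to 0.51 (Vcl).

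Gja1, the main connexin of the ventricle, had the most probe sets. Its brightest, 1437992_x_at, read 84413, 87867, 83503 and 77478 in trained plakoglobin (+/-) mice, against 90673, 92607, 93284 and 92596 in trained wildtype mice. The untrained plakoglobin (+/-) mouse read 77953 and the untrained wildtype mouse 82885. The wildtype signals of trained mice were tightly packed, at 92290 ± 1125 (SD, n = 4), and the plakoglobin (+/-) signals, at 83315 ± 4322 (SD, n = 4), were spread wider below them. Its range over all 10 arrays was only 1.20-fold, the smallest of the tested probe sets, and its training difference was small, at 0.10 (SE 0.14), or 0.19 under quantile normalization.

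The other Gja1 probe sets differed more between trained and untrained mice. Probe set 1438650_x_at read 40493, 17163, 19269 and 14493 in trained plakoglobin (+/-) mice and 41263, 21328, 30180 and 23985 in trained wildtype mice, against 9263 and 12498 in the untrained plakoglobin (+/-) and wildtype mouse. Each trained mouse was higher than the untrained pair, and the highest 2 were wildtype replicate 1 and plakoglobin (+/-) replicate 1, the arrays with both control ratios raised. The training difference was 0.85 (SE 0.30; limma, adjusted p = 0.387). Probe set 1415800_at, which has no "_x" mark, read 26237, 18708, 20959 and 23617 in trained plakoglobin (+/-) mice and 26062, 27395, 23285 and 34787 in trained wildtype mice, against 17214 and 17863 in the untrained plakoglobin (+/-) and wildtype mouse. Its trained mice again all lay above the untrained pair, with a difference of 0.58 (SE 0.20; limma, adjusted p = 0.388).

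Another 2 Gja1 probe sets also had all trained mice above the untrained pair. Probe set 1438945_x_at read 45754, 34537, 48942 and 34146 in trained plakoglobin (+/-) mice and 54347, 45528, 44758 and 49122 in trained wildtype mice, against 30688 and 33404 in the untrained plakoglobin (+/-) and wildtype mouse. Probe set 1438973_x_at read 9725, 8764, 7892 and 7971 in trained plakoglobin (+/-) mice and 9102, 7093, 9780.1 and 8298 in trained wildtype mice, against 6357 and 5476 in the untrained plakoglobin (+/-) and wildtype mouse. Neither overlapped between trained and untrained mice, and the differences were 0.46 (SE 0.20) and 0.40 (SE 0.18).

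One Gja1 probe set went against these. Probe set 1415801_at read 2860, 34656, 20781 and 18622 in trained plakoglobin (+/-) mice and 6547, 7734, 26209 and 13270 in trained wildtype mice, against 20995 and 18825 in the untrained plakoglobin (+/-) and wildtype mouse. Its 3 lowest signals were those of the 3 arrays of high GAPDH ratio, and its training difference was -0.49 (SE 0.83), or -0.27 (SE 0.16) without them. On this probe set the range over the arrays was 12.1-fold.

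By genotype, 3 further Gja1 probe sets were lower in trained plakoglobin (+/-) mice, with differences of -0.31 (1415800_at), -0.43 (1438650_x_at) and -0.26 (1438945_x_at). Probe set 1438973_x_at had 0.01 and 1415801_at 0.28. Without the 3 arrays (plakoglobin (+/-) n = 3, wildtype n = 2) the first 2 became -0.50 (SE 0.16) and -0.65 (SE 0.17) and 1415801_at 0.50 (SE 0.15). The unadjusted p of these 3 values lay between 0.00417 and 0.00918 and the adjusted p was 0.709 for each, so Gja1 probe sets moved in opposite directions and none passed.

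**Figure D3:**
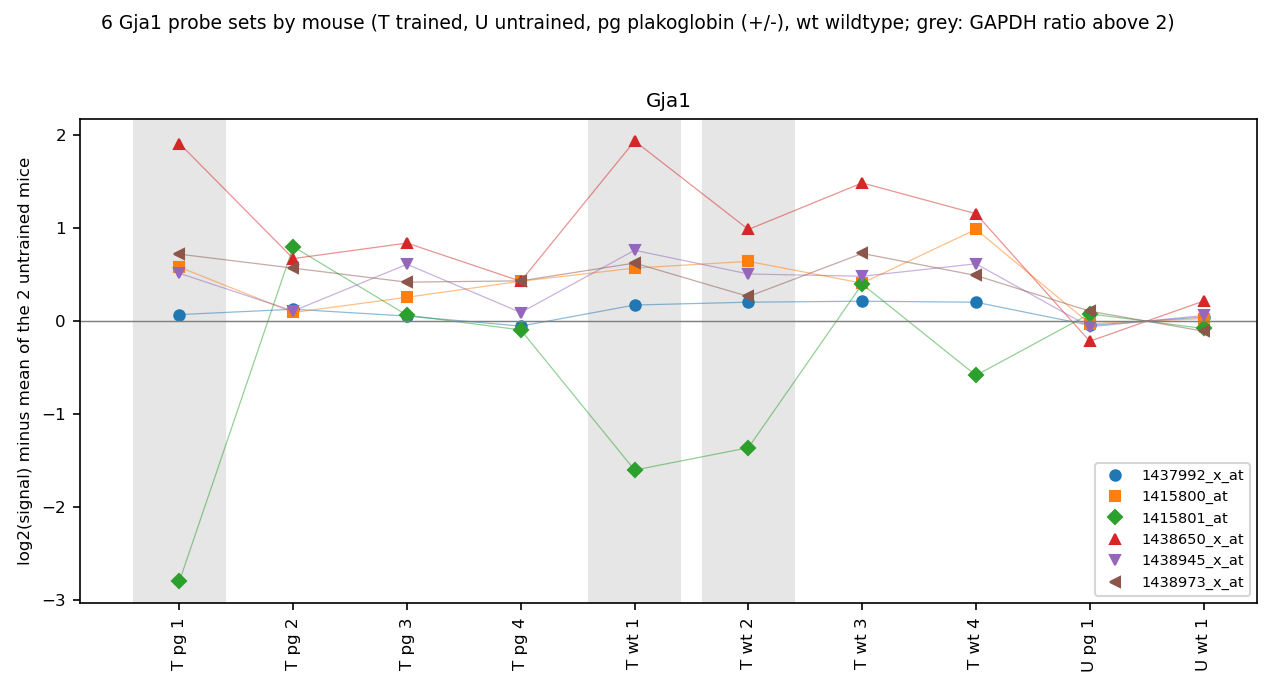
Log2 signal of the 6 Gja1 probe sets on each array, relative to the mean of the 2 untrained mice of the same probe set (arrays in order: 4 trained plakoglobin (+/-), 4 trained wildtype, untrained plakoglobin (+/-), untrained wildtype); grey bands mark the 3 arrays of high GAPDH ratio. In these bands 1415801_at drops and 1438650_x_at is high in the first 2, while 1437992_x_at stays nearly flat over all 10 arrays.

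Gja5 could not be followed in this tissue. Its only probe set read 27.5, 55.5, 36.5 and 55.5 in trained plakoglobin (+/-) mice, against 31.5, 46.0, 36.0 and 62.5 in trained wildtype mice. Untrained mice read 39.5 (plakoglobin (+/-)) and 80.5 (wildtype). All 10 signals were below the floor of 104, so no difference was tested, and a low level cannot be told apart from a probe set that responds poorly. Endothelium, in which arteries carry connexin 40, was present by its markers: all 10 were tested, among them Cdh5, the cadherin of endothelial cells, at 2565 to 6796.

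The promoters of both connexins are printed because Gja1 was the gene with the most probe sets above the untrained mice and Gja5 the gene at the floor. The sequences are from RefSeq, build GRCm38.p6, each with 250 bases before and 50 after the annotated start, and the table held entries for 8 of the 10 genes. Capitals mark an AP-1 motif, TGAGTCA on either strand. Gja1, chr10:56377050-56377349, plus strand, and Gja5, chr3:97032152-97032451, plus strand, read as follows.
Gja1: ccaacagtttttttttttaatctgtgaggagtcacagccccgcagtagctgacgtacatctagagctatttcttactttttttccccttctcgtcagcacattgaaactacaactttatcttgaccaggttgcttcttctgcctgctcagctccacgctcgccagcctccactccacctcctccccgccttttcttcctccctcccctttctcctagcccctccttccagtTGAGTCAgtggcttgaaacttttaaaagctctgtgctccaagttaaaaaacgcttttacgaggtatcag
Gja5: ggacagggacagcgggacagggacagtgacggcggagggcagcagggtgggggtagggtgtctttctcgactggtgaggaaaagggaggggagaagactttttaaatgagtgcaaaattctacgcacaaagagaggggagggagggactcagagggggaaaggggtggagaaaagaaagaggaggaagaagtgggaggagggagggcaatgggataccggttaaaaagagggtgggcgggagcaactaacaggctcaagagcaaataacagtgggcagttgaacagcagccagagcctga
The Gja1 window held 1 AP-1 motif, which begins at position -19 relative to the annotated start, and the Gja5 window held none. Of all 32851 promoter windows of this length, 5.2% held the motif, and of the 12 windows of the genes described here 1 did. The TATA box, TATAAA on either strand, was in neither connexin window, and 13.6% of all windows held it. The GC box, GGGCGG on either strand, occurred 1 time in the Gja5 window and not in that of Gja1, and 35.7% of all windows held it. Letters alone say nothing about binding.

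Ctnna1, which encodes the broadly expressed alpha-catenin, separated trained from untrained mice on both tested probe sets. Probe set 1437807_x_at read 89479, 56834, 65946 and 67670 in trained plakoglobin (+/-) mice and 99710, 67732, 60898 and 58943 in trained wildtype mice, against 40872 and 47086 in the untrained plakoglobin (+/-) and wildtype mouse. Probe set 1448149_at read 66020, 49028, 54869 and 69257 in trained plakoglobin (+/-) mice and 57585, 88854, 68841 and 72341 in trained wildtype mice, against 40217 and 48230 in the untrained plakoglobin (+/-) and wildtype mouse. Every trained mouse was above both untrained mice on each. The highest 2 mice on the first probe set were trained wildtype replicate 1 and trained plakoglobin (+/-) replicate 1, and on the second trained wildtype replicate 2, all of them arrays of high GAPDH ratio.

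The training differences of Ctnna1 were 0.57 (SE 0.23; limma, adjusted p = 0.499) and 0.67 (SE 0.19; limma, adjusted p = 0.233), and 0.55 and 0.61 without those 3 arrays. By genotype the probe sets had -0.02 (SE 0.20) and -0.26 (SE 0.16). A further probe set, 1437275_at, read between 26.0 and 445.1 and was not tested.

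Ctnnb1, which encodes beta-catenin, the partner that can take the place of plakoglobin at cadherin tails and also carries Wnt signals, did not separate any groups. Its brightest probe set, 1420811_a_at, read 24521, 27149, 21360 and 23712 in trained plakoglobin (+/-) mice, against 34471, 35570, 27314 and 21303 in trained wildtype mice. Without training the signal was 27655 in the plakoglobin (+/-) and 26527 in the wildtype mouse. The highest 2 were the trained wildtype arrays of high GAPDH ratio, replicates 1 and 2, and the genotype difference was -0.27 (SE 0.18) over the 8 mice and 0.04 (SE 0.15) without the 3 arrays. Its training difference was -0.12 (SE 0.22), or -0.30 (SE 0.15) without them.

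The other Ctnnb1 probe sets fell away on the same arrays. Probe set 1430533_a_at read 266.5, 9379, 4307 and 6196 in trained plakoglobin (+/-) mice and 1251, 3275, 6138 and 4775 in trained wildtype mice, against 6651 and 8229 in the untrained plakoglobin (+/-) and wildtype mouse. Its 3 lowest signals were again those of the 3 arrays, and its range was 35.2-fold, the widest of the tested probe sets. Probe set 1450008_a_at read 3056, 12934, 7438 and 8656 in trained plakoglobin (+/-) mice and 2612, 12642, 9311 and 5531 in trained wildtype mice, against 8576 and 10233 in the untrained plakoglobin (+/-) and wildtype mouse. Here the lowest 2 were trained plakoglobin (+/-) replicate 1 and trained wildtype replicate 1. Without the 3 arrays the genotype differences of the 2 probe sets were 0.33 (SE 0.22) and 0.51 (SE 0.17; unadjusted p = 0.0123; limma, adjusted p = 0.709). Their training differences were -0.71 (SE 1.09) and -0.19 (SE 0.59) over all mice. Without the 3 arrays these became -0.58 (SE 0.23) and -0.45 (SE 0.20), lower in trained mice as at the brightest probe set, and neither passed.

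Cdh2, the cadherin itself, had overlapping groups in both comparisons. Probe set 1418815_at read 22744, 15466, 25514 and 25597 in trained plakoglobin (+/-) mice, against 21328, 28409, 22164 and 22221 in trained wildtype mice. The untrained plakoglobin (+/-) mouse read 21091 and the untrained wildtype mouse 20651. The training difference was 0.28 (SE 0.20) and the genotype difference -0.09 (SE 0.17), and the lowest and highest mice of the 10 were both trained. Its second probe set, 1449244_at, read 9806, 10532, 14883 and 14783 in trained plakoglobin (+/-) mice and 8878, 20040.5, 12679 and 13757 in trained wildtype mice, against 10429.8 and 12915 in the untrained plakoglobin (+/-) and wildtype mouse. It also overlapped between all groups and had 0.44 (SE 0.21) by training and -0.11 (SE 0.18) by genotype, the second being -0.053 without the 3 arrays. Without regard to sex, its geometric mean was only 1.10 times as high in trained as in untrained mice.

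Ctnnd1, which encodes p120-catenin, was read by 1 probe set. It read 574.6, 2379, 1063 and 778.6 in trained plakoglobin (+/-) mice, against 894.6, 1529, 1297 and 824.1 in trained wildtype mice. Untrained mice read 1069 (plakoglobin (+/-)) and 1701 (wildtype). One trained plakoglobin (+/-) mouse, replicate 2, was the highest of all 10 and replicate 1 the lowest. The training difference was -0.42 (SE 0.52), or -0.64 without the 3 arrays, and ranged from -0.71 without the untrained plakoglobin (+/-) mouse to -0.13 without the untrained wildtype mouse. The genotype difference of -0.09 (SE 0.45) ranged from -0.54 without plakoglobin (+/-) replicate 2 to 0.28 without plakoglobin (+/-) replicate 1.

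Tjp1, which encodes ZO-1, read 13571, 8503, 10178 and 9614 in trained plakoglobin (+/-) mice, against 10235, 11690, 9400 and 10692 in trained wildtype mice. Without training the signal was 8083 in the plakoglobin (+/-) and 9110 in the wildtype mouse. Of the 8 trained mice 7 lay above both untrained mice, and the training difference of 0.29 (SE 0.21) did not pass (limma, adjusted p = 0.807). By genotype it had -0.02 (SE 0.19), or -0.13 (SE 0.16) without the 3 arrays.

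Vcl, which encodes vinculin, read 21227, 17313, 16076 and 19488 in trained plakoglobin (+/-) mice by its brighter probe set, 1416156_at, against 17999.5, 22624, 19104 and 24375 in trained wildtype mice. The untrained plakoglobin (+/-) mouse read 16633 and the untrained wildtype mouse 17354. The groups overlapped, with differences of 0.26 (SE 0.19) by training and -0.18 (SE 0.16) by genotype. The genotype value was -0.32 (SE 0.16) without the 3 arrays and ranged from -0.28 to -0.079 with each mouse left out. Its dimmer probe set, 1416157_at, read 128.0, 2476, 2505 and 2339 in trained plakoglobin (+/-) mice and 107.5, 898.1, 1766 and 2673 in trained wildtype mice, against 1378 and 2252 in the untrained plakoglobin (+/-) and wildtype mouse. On this probe set the 3 arrays of high GAPDH ratio were the lowest 3, and the first 2 of them lay just above the floor. Its training difference was 0.14 with these arrays and 0.53 without them, and its genotype difference 0.51 with them and 0.13 without them. The training value of 0.14 depends on the sex term, which was 1.97 (SE 1.01), and the signals themselves went the other way. Over all mice the geometric mean of this probe set was 0.556 times as high in trained as in untrained mice.

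The promoter of Vcl is shown because it held a CArG box, the motif of serum response factor, which drives many genes of the actin cytoskeleton in muscle. The window, chr14:20929148-20929447, plus strand, of RefSeq build GRCm38.p6, has the motif in capitals.
Vcl: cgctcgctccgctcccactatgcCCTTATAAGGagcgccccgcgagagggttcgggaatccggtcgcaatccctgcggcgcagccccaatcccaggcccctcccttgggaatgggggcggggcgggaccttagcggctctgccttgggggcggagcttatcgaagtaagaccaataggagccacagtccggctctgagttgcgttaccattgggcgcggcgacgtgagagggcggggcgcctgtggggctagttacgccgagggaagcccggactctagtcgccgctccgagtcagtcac
The motif begins at position -227. It was in 1 of the 12 windows of these genes and in 1.63% of all 32851 windows, searched on both strands, where a TATAAA can lie inside a CArG box. No difference of Vcl passed, so the motif is a description of the sequence only.

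**Figure D4:**
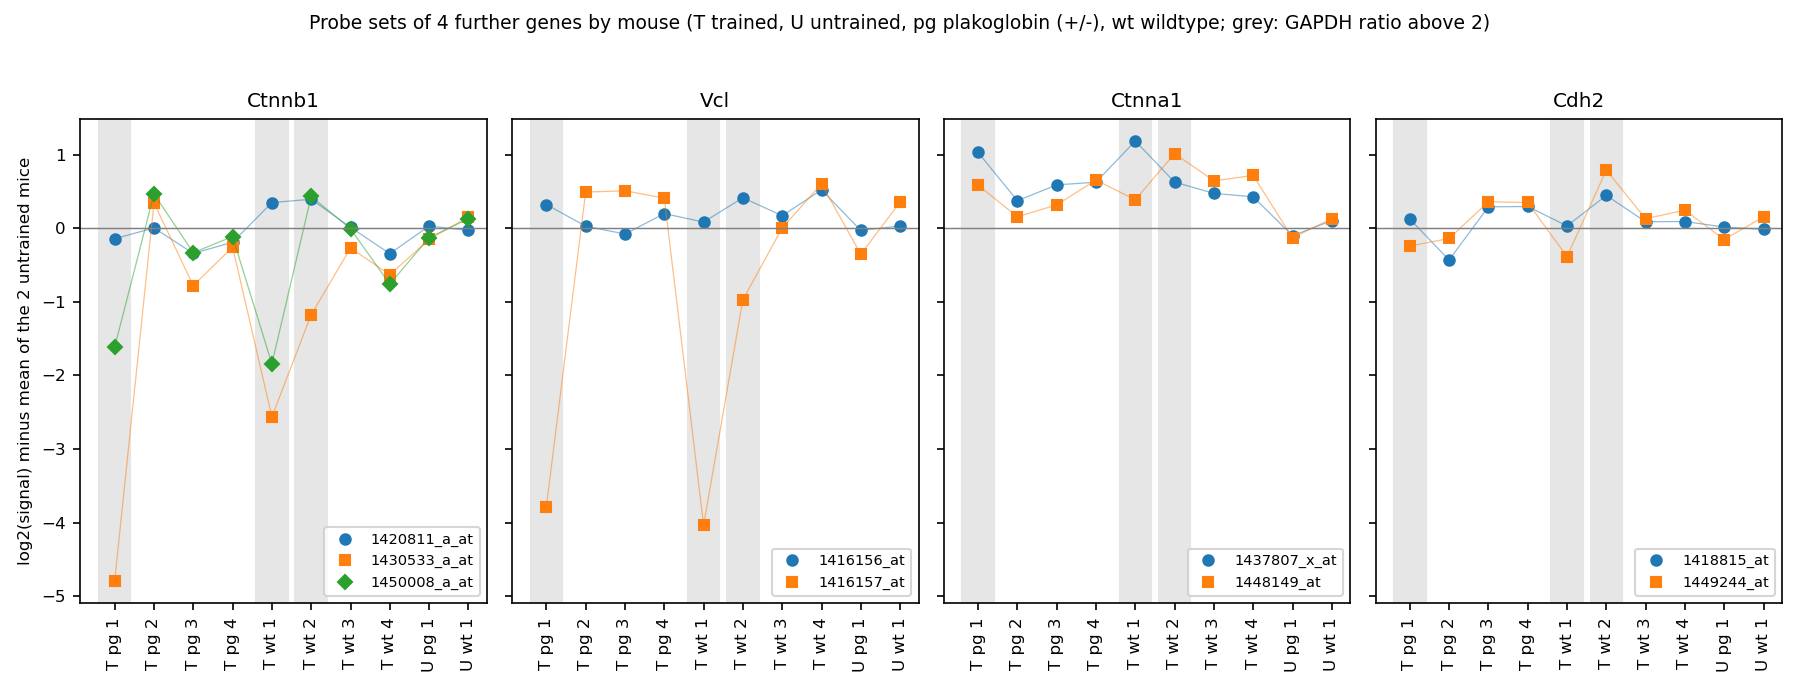
Log2 signal of the tested probe sets of Ctnnb1, Vcl, Ctnna1 and Cdh2 on each array, relative to the mean of the 2 untrained mice of the same probe set; grey bands mark the 3 arrays of high GAPDH ratio. Probe sets 1430533_a_at of Ctnnb1 and 1416157_at of Vcl drop in the bands, and both Ctnna1 probe sets lie above 0 in all 8 trained mice.

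Des, the desmin gene, was lower in most trained mice without passing. Its brighter probe set, 1426731_at, read 29690, 33731, 32103 and 46235 in trained plakoglobin (+/-) mice, against 35329, 29409.6, 38209 and 41562 in trained wildtype mice. Untrained mice read 44228 (plakoglobin (+/-)) and 41290.4 (wildtype). Of the 8 trained mice 6 lay below both untrained mice, and the training difference was -0.22 (SE 0.21; limma, adjusted p = 0.869). It was -0.10 without the 3 arrays, -0.089 with the GAPDH ratio as a covariate and -0.095 without trained wildtype replicate 2 alone. The dimmer probe set 1426732_at had -0.24 (SE 0.32), and by genotype the probe sets had -0.04 (SE 0.18) and 0.23 (SE 0.27), or -0.14 and 0.072 without the 3 arrays.

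**Figure D5:**
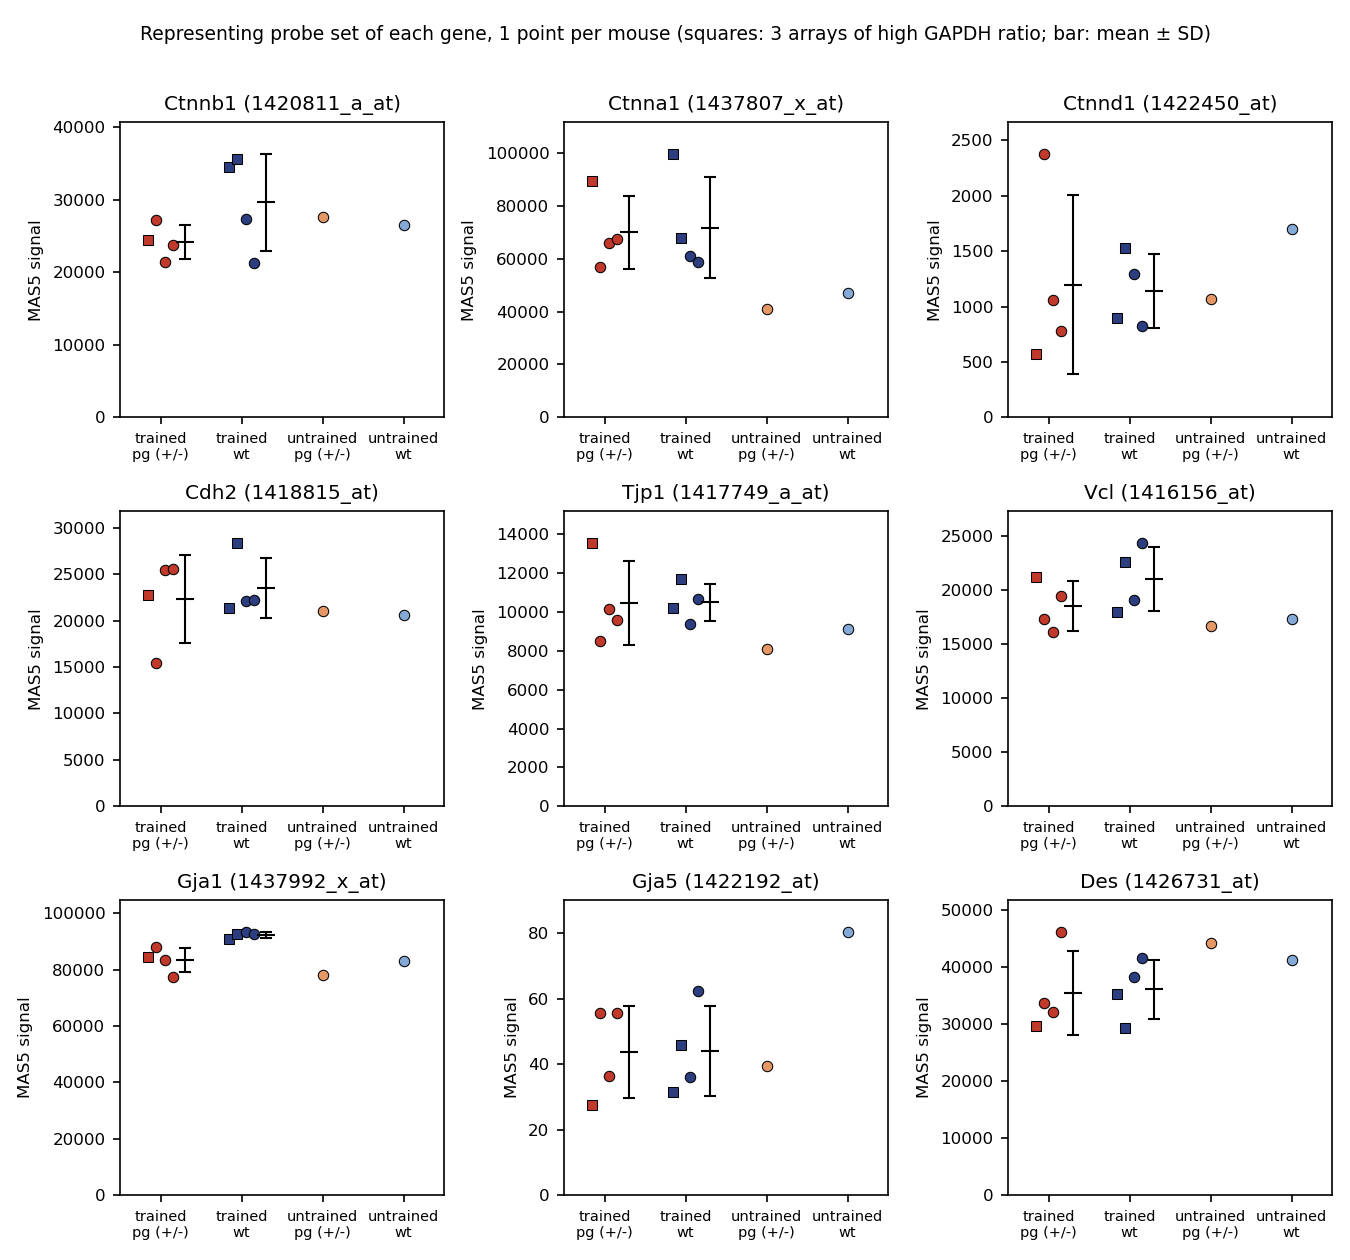
MAS5 signal of the representing probe set of each gene, 1 point per mouse in 4 groups (trained plakoglobin (+/-), trained wildtype, untrained plakoglobin (+/-), untrained wildtype), with the mean and SD of the trained groups; squares are the 3 arrays of high GAPDH ratio. Ctnna1 is higher in all 8 trained mice than in both untrained mice, the 4 plakoglobin (+/-) mice lie below the 4 wildtype mice at Gja1, and all Gja5 signals are under the floor of 104.

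At 7 of the 19 tested probe sets the 2 arrays with both control ratios raised lay beyond the other 8, and probe sets outside these 7 also moved without the 3 arrays of high GAPDH ratio, as given at each gene. The arrays of trained plakoglobin (+/-) replicate 1 and of wildtype replicate 1 in that condition were both below the other 8 arrays at 5 of 19 probe sets, namely 1 of Gja1, 1 of Vcl, 2 of Ctnnb1 and 1 of Cdh2, against 11.3% of all tested probe sets. They were both above the other 8 at 2 of 19, 1 of Gja1 and 1 of Ctnna1, against 10.4% of all (21.8% in either direction). At 2 of 19 both were over 2-fold below the lowest of the other 8 arrays, Ctnnb1 1430533_a_at and Vcl 1416157_at, against 1.39% of all. So probe sets of 1 gene (Gja1) lay at both ends on these 2 arrays, and where along the transcript each probe set lies was not used here. Both mice are males, and the other 2 trained males, with GAPDH ratios of 0.892 and 0.916, are among the 8 arrays that they lay beyond.

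The genotype difference in trained mice was also set against that of the untrained pair. By limma, with the single untrained mice assumed to vary like the trained ones, 0 of 19 probe sets passed for the genotype by training term and 0 had an unadjusted p under 0.05, against 0% of all probe sets past the threshold and 3.2% of all at an unadjusted p under 0.05. The term was above 0 at 9 of 19, against 51.7% of all. With 1 mouse on each untrained side the intervals were wide: for Gja1 the term was -0.06 with a 95% interval from -0.63 to 0.51, and for Ctnnb1 -0.33 from -1.25 to 0.59. Between the untrained mice themselves, which have no replicate and no test, the plakoglobin (+/-) mouse differed from the wildtype mouse by -0.09 at Gja1, -0.20 at Ctnna1, 0.06 at Ctnnb1, 0.03 at Cdh2 and 0.10 at Des. Ctnnd1 had the largest value among the representing probe sets, -0.67.

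Between the sexes in trained mice, 0 of 19 probe sets passed by limma, against 0.0516% of all (0.00737% higher and 0.0442% lower in females), and 2 of 19 had an unadjusted p under 0.05, against 8.82% of all. These 2 were Cdh2 1449244_at, higher in all 4 females than in all 4 males, at 0.60 (SE 0.18; limma, adjusted p = 0.505), and Gja1 1438650_x_at, at -0.65 (SE 0.26; limma, adjusted p = 0.514). Without the 3 arrays the Gja1 value was -0.16 (SE 0.17). Sex differences of Gja1 1415801_at, at 0.31, and Ctnnb1 1450008_a_at, at 0.56, turned to -0.89 and -0.72 without those arrays, and that of Ctnnb1 1430533_a_at, at 1.11, to -0.65. None of these passed (lowest adjusted p = 0.082 by limma, for Gja1 1415801_at). Females were above all males at 1 of 19 probe sets, against 2.91% of all, and below them at 1, Gja1 1438973_x_at, against 2.98% (5.89% in either direction). Over the 19, 11 were higher in females, against 49.1% of all. On Cdh2 1449244_at the lowest 2 trained mice were the 2 males of high GAPDH and actin ratio, and without the 3 arrays its sex difference was 0.33 (SE 0.16).

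Further genes of the same structures were listed by name, with earlier results of these data known. Of 30 other adherens junction genes 24 were on the array and 20 were tested; 0 passed by training or genotype, with 12 higher and 8 lower in trained mice and a median of 0.04. The values of largest size by training were Cxadr, a virus receptor that sits at the disc, at 1.20 (SE 0.46), Vasp, an actin regulator, at -0.92 (SE 0.38), Cdh11 at -0.85 (SE 0.49), a cadherin of mesenchymal cells, and Actn4 at -0.71 (SE 0.20), a non-muscle actinin. Cxadr read 850.6 to 3271 in trained mice, which overlapped the untrained plakoglobin (+/-) mouse at 847.1 and the untrained wildtype mouse at 2079. Its sex difference in trained mice was 1.01 (SE 0.33). By genotype they were Cdh11 at 0.57 (SE 0.46) and Jup at -0.53 (SE 0.24). All 8 trained mice were beyond both untrained mice at 4 of these 20, above at Iqgap1 and below at Cdh11, Cdh4 and Actn4; Iqgap1 and Cdh4 are named after their values were seen. Of all tested probe sets 4.63% lay above and 4.61% below in this way.

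Of 18 other connexin and pannexin genes 11 were on the array and 4 were tested, with 0 past the threshold in either comparison. Gjc1, connexin 45, had 0.25 (SE 0.25) by training and -0.31 (SE 0.21) by genotype, and Gja4, connexin 37 of endothelium, 0.17 (SE 0.27) and 0.21 (SE 0.21). Gja3 had 0.24 by training and Gjb2, connexin 26, -0.32 by training and -0.35 by genotype. Of 12 desmosome genes 8 were tested and 0 passed, with 6 higher in trained mice and a median of 0.18; Perp had 0.80 (SE 0.23), Pkp2, plakophilin 2, 0.44 (SE 0.18), Dsg2, a desmosomal cadherin, 0.39 and Dsc2, another, -0.34. By genotype Dsc2 had 0.37 (SE 0.21), and Jup, which also belongs to this list, the value given above.

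Of 19 genes of intermediate filaments and Z-disc linkers 16 were tested and 0 passed, with 6 higher and 10 lower in trained mice and a median of -0.04. Those of largest size by training were Myot, myotilin of the Z-disc, at -0.97 (SE 0.27), Vim, the filament of non-muscle cells, at -0.64 (SE 0.21), Cryab, a desmin chaperone, at -0.63 (SE 0.24), and Mtm1, a desmin-binding phosphatase, at 0.44 (SE 0.29). By genotype they were Mtm1 at -0.42 (SE 0.22) and Nebl, a nebulin relative at the Z-disc, at 0.31 (SE 0.60). Vim also counts among the fibroblast markers. Nppa, the known load marker, was the only listed gene past the threshold by training, at 2.66 (SE 0.26; limma, adjusted p = 0.00112).

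Each gene was also set beside the tested genes whose log2 signals followed it most closely over the 10 mice, picked as the highest of 8365 values of Pearson's r, so that a high r is built in. All points share array and scaling, and the 3 arrays of high GAPDH ratio are among them. Des was closest to Actn2, the sarcomeric actinin of the Z-disc, with r = 0.92 (n = 10), and r = 0.91 over the 7 other arrays, and then to Tdo2 (r = 0.92). Cdh2 was closest to Abcg2 (r = 0.97) and Herc4 (r = 0.91), Gja1 to Impdh1 (r = 0.89) and Cyp2b13 (r = 0.89), and Vcl to Ube2a (r = 0.89) and Mrpl47 (r = 0.87). Ctnna1 was closest to 1810058I24Rik and Mpnd (r = 0.97 each), Ctnnb1 to Adam19 and Pum2 (r = 0.92 each), Tjp1 to Adk (r = 0.95) and Snw1 (r = 0.94), and Ctnnd1 to Ankrd10 (r = 0.90) and Xpo6 (r = 0.89). Over the 7 other arrays, r of the pairs named here ranged from 0.80 (Ctnnb1 and Pum2) to 0.99 (Tjp1 and Snw1).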

How the data were processed

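The deposited values are linear microarray intensities for 22690 probe sets on 10 arrays, made by the authors with MAS5 version 5.0 per the submitters' processing notes; the mean after trimming 2% at each end lay between 2501.31 and 2501.55 on every array. RNA was extracted with TRIzol, per the labels. Before taking log2, any signal below 104 (the 10th percentile over the table) was set to 104. Leaving out 64 control probe sets and those whose mean fell under the 40th percentile left 13576 for limma 3.58.1 (lmFit, eBayes with intensity trend) in R 4.3.3, two-sided, with Benjamini-Hochberg adjustment over all of them and a threshold of 0.05. Genotype and sex were fitted over the 8 trained mice, training over all 10 (covariates genotype, sex), and the interaction of genotype with training in a further fit. Mice were numbered in record order. Symbols came from the platform annotation, updated through gene IDs for the lists. The fits were tested on simulated data. Alternatives were quantile normalization, other floors and filters, other variance models, other samples or covariates, each mouse left out, and the 3 arrays of high GAPDH ratio left out or that ratio as a covariate. The genes, lists and alternatives were chosen with earlier results of these data known. Named are all 10 genes, the listed genes of largest difference (4 by training and 2 by genotype in each list), and the 2 genes closest to each.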

Additional observations from a re-analysis of the deposited data

Results flagged for a closer look

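Of 42 groups of 4 trained mice examined (21 probe sets, 2 groups each), 2 held a mouse that stood apart from the other 3 by Dixon's test, and chance alone flags about 1 in 20 groups. Vcl probe set 1416157_at read 128.0 in trained plakoglobin (+/-) replicate 1, against 2339 to 2505 in the other 3 mice of that group. Cdh2 probe set 1418815_at read 28408.5 in trained wildtype replicate 2, against 21328 to 22221 in the other 3. Both arrays have a GAPDH ratio above 2.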

How the results depend on the processing

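The count of 0 disc gene probe sets past the threshold by genotype, by sex and for genotype by training was the same under every alternative that could be fitted. By training it was 0 except without the 3 arrays of high GAPDH ratio, where it was 1 (Gja1 1438650_x_at). The genotype by training term could not be fitted without either untrained mouse. Over all probe sets the 85 passing by training became 225 without those 3 arrays, 2 in plakoglobin (+/-) mice only and 1 in wildtype mice only, and ranged from 10 to 87 with each mouse left out. By sex the 7 passing became 13 with quantile normalization, 15 with the higher floor or all 10 mice in 1 fit, 2 with no filter, 11 with the stricter filter, 1 with no trend, 17 without the 3 arrays and 16 with the ratio as covariate, and ranged from 1 to 12 with each mouse left out. For the genotype by training term 0 became 1 with quantile normalization or without the 3 arrays and 66 with no filter, and ranged from 0 to 1 with each trained mouse left out.

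Of 87 genotype values of single genes under alternatives other than leaving out a mouse, 8 turned in sign. With quantile normalization they were Ctnna1 (0.0541), Tjp1 (0.006) and Des (0.0224); without the 3 arrays Ctnnb1 (0.0415), Ctnna1 (0.0605) and Ctnnd1 (0.46); with the ratio as covariate Ctnna1 (0.0719) and Tjp1 (0.0771). Of 103 training values 1 turned, Ctnnb1 in wildtype mice only (0.0534). Read by other probe sets, the genotype difference turned for Gja1 (0.28 and 0.0084), Vcl (0.51), Des (0.23) and Ctnnb1 (0.15), and the training difference for Gja1 (-0.49). With each mouse left out, genotype ranged from -0.19 to 0.0407 for Cdh2, -0.15 to 0.14 for Ctnna1, -0.54 to 0.28 for Ctnnd1, -0.18 to 0.0347 for Des and -0.19 to 0.0814 for Tjp1, and training from -0.29 to 0.0433 for Ctnnb1. The cause of these changes was not tested. No paired analysis was possible because no label ties a mouse to its littermate.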
